A study of Mus musculus with 3 samples.

Results

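Chemokines are small secreted proteins that guide leukocytes, and 10 of them were followed here across single cells of the mouse molar: Cxcl1, Cxcl2, Cxcl5, Cxcl9, Cxcl10, Cxcl13, Cxcl14, Ccl2, Ccl7 and Ccl11. They were taken by name, as 10 of the 27040 gene identifiers that all 3 count matrices share, and read by marker-named cell class within each library. The series holds 3 droplet libraries of unique molecular identifiers (UMIs), 1 per group, made from sorted cells of mandibular molars after enzymatic release of pulp and periodontium. The first library is of postnatal day (P) 6 Cxcl12-GFP/+ mice, sorted for GFP, a reporter carried at Cxcl12. The second is of P6 mice carrying Cxcl12-creER and R26R(tdTomato/+), sorted for tdTomato, which marks cells in which the Cxcl12-driven recombinase has acted and their descendants. The third is of P25 mice that carry Col1a1-GFP beside Cxcl12-creER and R26R(tdTomato/+), with GFP+, tdTomato+ and doubly positive cells in 1 pool. When tamoxifen was given, and how many animals were pooled, is not given in the sources used here. With 1 library per group there is no test between groups, age cannot be told apart from reporter and gate in any comparison with P25, and the ratios below describe libraries.

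In the chemokine system a ligand secreted by tissue cells binds G protein-coupled receptors on leukocytes, and the ligand sets which leukocyte is drawn. Cxcl1, Cxcl2 and Cxcl5 signal through Cxcr2 and recruit neutrophils. Cxcl9 and Cxcl10 are interferon-induced Cxcr3 ligands that attract T cells. Cxcl13 attracts B cells, Cxcl14 is expressed constitutively in many tissues, Ccl2 and Ccl7 draw monocytes through Ccr2, and Ccl11 draws eosinophils through Ccr3.

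The members lie in tight runs of the genome (GRCm38). On chromosome 5, Cxcl5 (chr5:90759360-90761624), Cxcl1 (chr5:90891241-90893115) and Cxcl2 (chr5:90903871-90905938) lie on the plus strand within 146.6 kb. Cxcl9 (chr5:92321347-92328079) and Cxcl10 (chr5:92346638-92348889) lie on the minus strand within 27.5 kb, and Cxcl13 lies at chr5:95956951-95961068 on the plus strand. Ccl2 (chr11:82035571-82037453), Ccl7 (chr11:82045712-82047525) and Ccl11 (chr11:82057823-82062955) share the plus strand of chromosome 11 within 27.4 kb, and Cxcl14 stands alone on the minus strand at chr13:56288643-56296551.

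Promoter windows are shown for both pairs of neighbours that the RefSeq table holds, Cxcl1 with Cxcl2 and Cxcl9 with Cxcl10, since each pair is compared across cell classes below. They are read 5′ to 3′ on the gene's strand up to the annotated start, from build GRCm38.p6: chr5:90890995-90891240 plus for Cxcl1, chr5:90903649-90903870 plus for Cxcl2, chr5:92328080-92328329 minus for Cxcl9 and chr5:92348890-92349139 minus for Cxcl10. Capitals mark matches to the NF-kB consensus or to the interferon-stimulated response element (ISRE) core GAAANNGAAA.
Cxcl1: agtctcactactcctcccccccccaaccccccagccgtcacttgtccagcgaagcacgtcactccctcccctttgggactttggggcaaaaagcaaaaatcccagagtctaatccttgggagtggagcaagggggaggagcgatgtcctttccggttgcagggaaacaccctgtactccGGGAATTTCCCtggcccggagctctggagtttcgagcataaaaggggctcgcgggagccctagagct
Cxcl2: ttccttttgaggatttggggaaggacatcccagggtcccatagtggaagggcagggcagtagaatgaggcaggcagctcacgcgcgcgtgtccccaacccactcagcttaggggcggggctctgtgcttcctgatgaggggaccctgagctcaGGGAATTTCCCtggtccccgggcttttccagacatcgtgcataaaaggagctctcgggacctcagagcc
Cxcl9: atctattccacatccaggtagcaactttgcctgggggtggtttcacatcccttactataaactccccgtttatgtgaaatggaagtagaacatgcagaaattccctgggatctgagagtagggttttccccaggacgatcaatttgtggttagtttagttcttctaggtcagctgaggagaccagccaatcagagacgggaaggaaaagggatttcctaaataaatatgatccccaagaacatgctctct
Cxcl10: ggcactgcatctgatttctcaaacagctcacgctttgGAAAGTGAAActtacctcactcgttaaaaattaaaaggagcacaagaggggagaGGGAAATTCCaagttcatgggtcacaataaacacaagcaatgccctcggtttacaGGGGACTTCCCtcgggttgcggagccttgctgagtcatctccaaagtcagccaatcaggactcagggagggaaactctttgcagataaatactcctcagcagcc
Each motif was searched on both strands over the 250 bases before the RefSeq start, with overlapping matches kept. Cxcl1 and Cxcl2 hold the same run, GGGAATTTCCC, in which the NF-kB consensus matches at overlapping positions. These lie 71 and 70 bases before the RefSeq start in Cxcl1 and 97 and 96 bases before it in Cxcl2. The printed windows of both genes, 246 and 222 bases long, stop at the gene start given above (GENCODE), which lies upstream of the RefSeq start. Distances read off the printed windows are therefore shorter, and the difference in distance between both genes depends on the start used. Cxcl10 holds that consensus at 159, 104 and 103 bases and the ISRE core as GAAAGTGAAA at 213 bases. Of all 32851 promoters in the table, 7.25% hold the NF-kB consensus and 2.98% the ISRE core. In the Cxcl9 window neither these letters nor the GAS core TTCNNNGAA or the AP-1 core TGANTCA were found, which says only that these letters are absent from this window. Cxcl10 also holds the AP-1 core at 74 bases. Cxcl14, whose window is not printed, holds the ISRE core at 172 bases and the GAS core at 191 bases, so the ISRE core is not particular to Cxcl10. Of all promoters 7.02% hold the GAS core and 6.75% the AP-1 core. The table matched 6 of 10 members, and Cxcl5, Ccl2, Ccl7 and Ccl11 have no row in it.

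The deposited matrices held 7528, 1691 and 6693 barcodes for the P6 Cxcl12-GFP, P6 Cxcl12-creER and P25 libraries, of which 7065, 1121 and 5401 cells passed the filters, with median depths of 8142, 1469 and 14771 UMIs. The creER library is the shallow one, and 35.2% of its cells fell in clusters that no marker list named, against 23.8% and 28.6% in the GFP and P25 libraries. From 0 to 5 barcodes were shared between any pair of libraries. All levels are CPM, the gene's UMIs per 1000000 UMIs summed over the cells of a class, with exact Poisson 95% intervals that cover counting error only. The counts come from transcript 3′ ends, so levels are not compared between genes. In this design fewer producing cells and less RNA per producing cell are separated only by the shares of cells given beside each level.

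The name stromal holds for some of the 10 genes and not for others. At P25 the macrophage class of 280 cells, present in a library gated on mesenchymal reporters, held 79.6% of the Ccl2 UMIs, 90.4% of those of Ccl7, 73.2% of those of Cxcl2 and 61.3% of those of Cxcl13. The class called dental epithelium, 110 cells of a cluster led by the keratin genes Krt14, Krt5 and Krt17, held 73.3% of the Cxcl5 UMIs. Krt6a, Krt13, Lgals7 and Odam are also among its leading genes. The class name joins a general epithelium list with the ameloblast list, so it does not tell tooth epithelium from other epithelium. By contrast, 93.9% of the Ccl11 UMIs lay in the 121 connective tissue fibroblasts. Cxcl1, Cxcl9, Cxcl10 and Cxcl14 were highest in the 27 cells of the bone marrow stromal class, which expressed Cxcl12 at 17552 CPM; for Cxcl1 the fibroblasts were level with it within counting error. In the P25 library 8 of 10 members had a highest named class at least 2-fold above the next named class, against 25.3% of all genes that reached 20 CPM. At P6 this held for 6 of 8 members in the GFP library, with 17.7% of genes, and for 6 of 6 in the creER library, with 21.1%. Unnamed clusters are left out of these counts. The unnamed creER cluster 17 was above the highest named class for Ccl11, Cxcl14 and, from 9 UMIs, Ccl2, and GFP cluster 10 for Cxcl5. The highest named creER class of Ccl2, osteoblasts or cementoblasts, rests on 27 UMIs in the same cell.

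**Figure D1:**
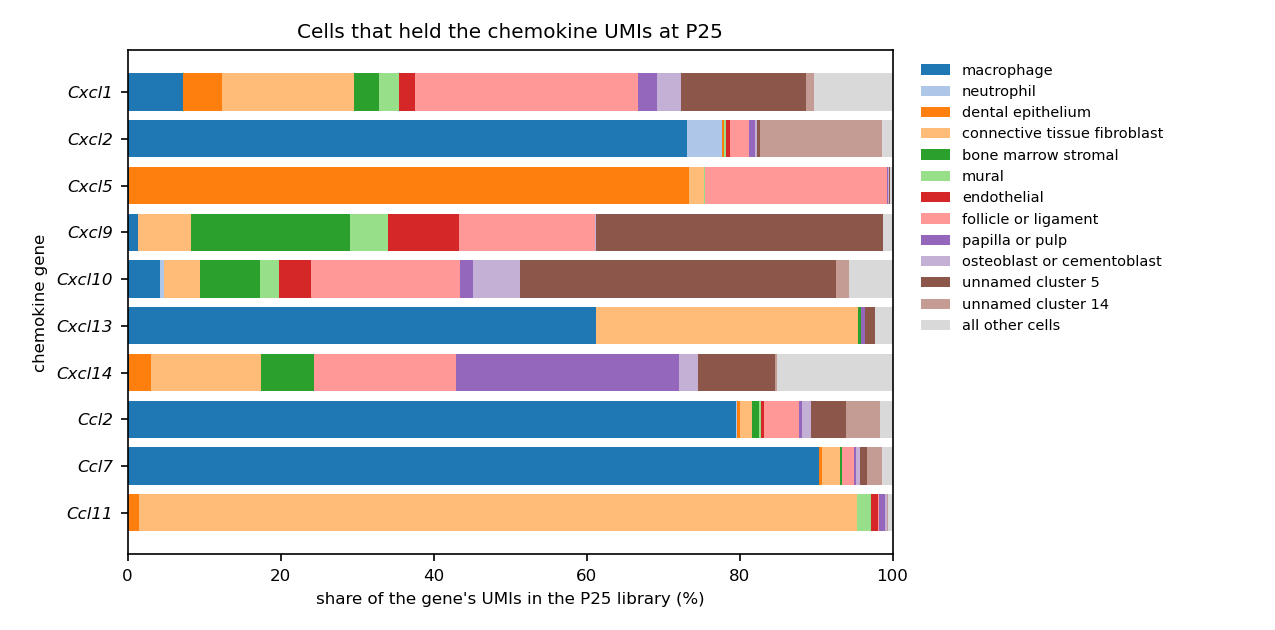
Share of each chemokine's UMIs in the P25 library by cell class (stacked bars, percent of the gene's UMIs over all kept cells, unnamed clusters 5 and 14 drawn apart). Macrophages take most of Ccl2, Ccl7 and Cxcl2, epithelium most of Cxcl5 and fibroblasts most of Ccl11, while Cxcl1 and Cxcl14 are spread over several classes.

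Cxcl1, the neutrophil attractant whose promoter is printed above, was found in many classes. In the GFP library it stood at 815 CPM (741 to 893) in mural cells, the contractile cells of vessel walls, where 35 of 66 cells had a UMI. In dental follicle or ligament cells, the fibroblasts around the root, it stood at 483 CPM (468 to 499), with 451 of 801 cells positive. Both were above Schwann cells at 225 CPM (166 to 297) and endothelial cells at 193 CPM (162 to 228), whose intervals overlap. The Col9a1-high mesenchyme (2125 cells) was at 44.0 CPM (40.9 to 47.2) and papilla or pulp (2273 cells) at 35.8 CPM (33.0 to 38.7). When every cell was reduced at random to 1000 UMIs (thinned below), 33.3% of mural and 24.6% of follicle cells kept a Cxcl1 UMI, against 3.20% of Col9a1-high cells, which served as a low reference (19.2% before thinning), at median depths of 7711, 9366 and 7974 UMIs.

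At P25 Cxcl1 was 924 CPM (813 to 1045) in marrow stromal cells and 882 CPM (836 to 931) in connective tissue fibroblasts, a difference within counting error. Mural cells followed at 523 CPM (455 to 600). The unnamed cluster 5 was at 261 CPM (247 to 276). Fibroblasts had a Cxcl1 UMI in 62 of 121 cells (51.2%, 30.6% thinned), and the odontoblasts, the dentin-forming cells used as the low reference, in 6.70% (1.68% thinned), at median depths of 12400 and 18903 UMIs. Of the ligament clusters, cluster 1 had the most Cxcl1, at 180 CPM, and cluster 0 the least, at 53.5 CPM. In the shallow creER library the 74 fibroblasts were at 259 CPM (204 to 324) from 75 UMIs, with clusters 15 and 18 at 561 and 196 CPM. Unnamed cycling cluster 13 was at 153 CPM (99.3 to 227) from 25 UMIs in 3 of 43 cells, and mural cells at 42 CPM from 5 UMIs in 1 cell.

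**Figure D2:**
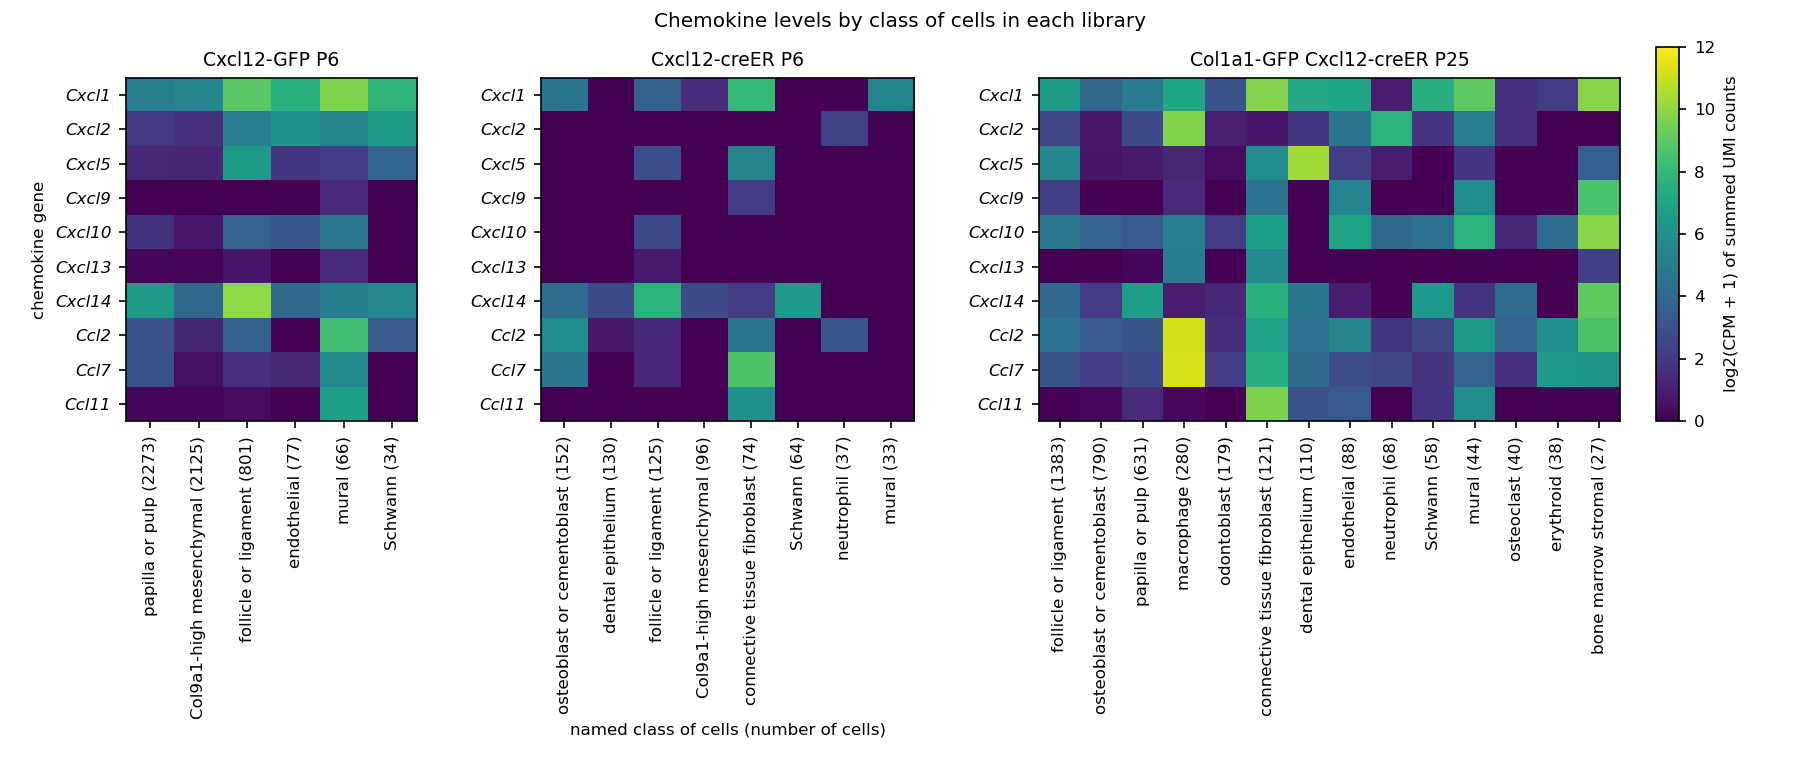
Level of each of the 10 chemokines in each named class of 20 or more cells, as log2(CPM + 1) in colour, with 1 panel per library. The bright cells of Ccl2, Ccl7 and Cxcl2 lie in P25 macrophages, that of Cxcl5 in P25 epithelium, and Cxcl14 is brightest in the follicle or ligament cells of the P6 GFP library.

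Cxcl2, which shares the NF-kB run of Cxcl1, was instead a myeloid transcript at P25. It reached 851 CPM (824 to 880) in macrophages, where 118 of 280 cells (42.1%, 23.9% thinned) had a UMI and the highest cell held 205. Neutrophils were next at 213 CPM (186 to 243), with 19 of 68 cells positive, and P25 odontoblasts had 2.23% (0.559% thinned). Ligament cells stood at 4.84 CPM (4.01 to 5.79). The unnamed cycling cluster 14, led by granulocyte genes such as Elane and Prtn3, held a further 15.9% of the UMIs, in 16 of 132 cells. Its 10 cells with 10 or more Cxcl2 UMIs had a macrophage list of 10434 CPM, against 613 CPM in its cells without Cxcl2. Among Cxcl2-positive macrophages 32.2% also had Cxcl1, against 8.02% of the other macrophages. In the P6 GFP library, which formed no macrophage class, Cxcl2 was 96.4 CPM (59.7 to 147) in Schwann cells, from 21 UMIs, 73.3 CPM (54.7 to 96.1) in endothelial cells, 44.9 CPM (29.0 to 66.2) in mural cells and 35.8 CPM (31.7 to 40.3) in follicle cells. Intervals of neighbours in that order overlap, but the follicle interval lies below the Schwann and endothelial intervals. In that library 9 follicle cells with 10 or more Cxcl2 UMIs had no UMI of the macrophage list. The creER library held a single Cxcl2 UMI.

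Cxcl5, the third Cxcr2 ligand of the chromosome 5 run, had its highest level in different classes of the 3 libraries. In the P6 GFP library it lay in follicle cells at 92.3 CPM (85.7 to 99.4), with 150 of 801 cells positive (18.7%, 4.99% thinned) against 1.08% of Col9a1-high cells (0.235% thinned). Cluster 10 of that library, an unnamed cluster led by Lpl, Mmp13 and Bglap, was higher at 150 CPM (134 to 167). Of the follicle cells with Cxcl1, 24.8% (20.9 to 29.1) also had Cxcl5, against 10.9% (7.80 to 14.6) of those without.
At P25 Cxcl5 reached 1279.7 CPM (1237 to 1324) in the class called dental epithelium, with 51 of 110 cells positive (46.4%, 30% thinned). The highest cell had 719 UMIs, and the median depth was 21796 UMIs. P25 odontoblasts had 0.559% (0 thinned). The 36 epithelial cells with 10 or more Cxcl5 UMIs held 98.6% of the class's Cxcl5. Their epithelial list summed to 33064 CPM against 29104 CPM in the 59 epithelial cells with none, and their ameloblast list, of enamel-forming cells, to 1171 against 4476 CPM. Their neutrophil list summed to 6735 against 46.2 CPM, and to 1265 against 7.70 CPM without S100a8 and S100a9; its part in the result was not tested.
Ligament cells at P25 stood at 43.9 CPM (41.3 to 46.6), but 1 cell of cluster 7 held 504 of the 1078 UMIs, with no epithelial-list UMI. The 9 ligament cells with 10 or more UMIs held 91.7%. The other Cxcr2 ligands of epithelium were Ppbp at 236 CPM and Cxcl3 at 118 CPM.

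Cxcl9 and Cxcl10, the interferon-induced pair, had few UMIs at P6 and lay in the same classes at P25. Cxcl9 had 1 UMI in each P6 library and 506 in 81 cells at P25. Cxcl10 had 275 UMIs in the GFP library, 9 in the creER library and 3354 at P25. Marrow stromal cells at P25 had 383 CPM of Cxcl9 (314 to 464; 14 of 27 cells) and 946 CPM of Cxcl10 (834 to 1068; 12 of 27 cells). Mural cells followed with 62.9 and 216 CPM, then endothelial cells with 41.1 and 122 CPM, and fibroblasts with 23.1 and 105 CPM. For Cxcl10 the endothelial and fibroblast intervals, 102 to 144 and 89.7 to 123 CPM, overlap. Over the 29 clusters of the P25 library, which share that library and its depth, the levels of the pair had a Pearson r of 0.77 and a Spearman rho of 0.73.

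Most Cxcl10 was in few cells, with 73.0% of its P25 UMIs in 55 of 5401 cells. The unnamed cluster 5 of 352 cells, in which osteoblast and ligament marker lists tied and whose leading genes include haemoglobin, Mmp13, Ptx3 and Igf1, held 41.3% of all P25 Cxcl10 UMIs. Only 58 of its cells (16.5%, 9.43% thinned) had a UMI, and the highest cell had 144. P25 odontoblasts had a UMI in 0.559% of cells (0.559% thinned). Ligament cells had 26.6 CPM (24.6 to 28.7), with 2.27 CPM in cluster 0 and 58.7 CPM in cluster 1, and 16 cells held 86.7% of that. The macrophage list of those 16 cells summed to 7.57 CPM against 18.4 CPM in ligament cells without Cxcl10.

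Cells with Cxcl10 differed from their cluster neighbours in the interferon response list of 24 genes, 23 of which are in the files. In ligament cluster 1, 19 of 19 list genes at 20 CPM were at least 2-fold higher in the 26 cells with Cxcl10 than in the 379 without, where 3.37% of all genes were. The median difference was 2.27 on the log2 scale, over 0.00 for all genes, at median depths of 14922 and 14682 UMIs. In cluster 5, 11 of 18 were (all genes 1.30%), with a median of 1.13. Of the NF-kB response list 6 of 13 genes in cluster 1 and 2 of 12 in cluster 5 were at least 2-fold higher. These cells were split by Cxcl10 itself, so the counts describe them and test nothing. By class, the summed interferon list was 4567 CPM in endothelial and 4539 CPM in marrow stromal cells, 1718 CPM in cluster 5, 346 CPM in ligament and 120 CPM in epithelium, the class with no Cxcl10 UMI.

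Cxcl13 was rare and held by single cells. At P25, 222 UMIs lay in 18 cells. Fibroblasts had 76 UMIs in 10 cells, or 50.1 CPM (39.5 to 62.7), and macrophages had 136 UMIs in 4 cells, or 32.5 CPM (27.3 to 38.5). In macrophages 2 cells held 132 of the 136 UMIs, with a macrophage list of 23579 CPM against 20521 CPM in macrophages without Cxcl13. In the P6 GFP library 61 of 94 UMIs were in 7 cells of cluster 8, 49 of them in 1 cell.

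Cxcl14, the constitutive member, was high in the P6 follicle. In the GFP library 740 of 801 follicle or ligament cells (92.4%, 51.4% thinned) had a UMI, at 1002 CPM (980 to 1025), which is 11-fold (10.4 to 11.6) above papilla or pulp at 91.2 CPM (86.8 to 95.9). Col9a1-high cells had 10.8% (1.69% thinned). Unnamed clusters 6 and 12 of the same library were at 604 and 430 CPM, the first with a follicle list and led by Acta2, Mmp13 and Adamts5. Within pulp cluster 5 stood at 215 CPM and cluster 3 at 26.8 CPM. Of follicle cells with Cxcl1 90.7% had Cxcl14, and of those without it 94.6%.
In the creER library the follicle class was again highest at 218 CPM (193 to 245), but cluster 5 had 12.4 CPM and cluster 20 had 2438 CPM, the last from 45 UMIs. Unnamed cluster 17, 36 cells led by Apod, Col2a1 and Col15a1, was at 686 CPM (500 to 918) with 26 cells positive.
At P25 the ligament class was low, at 16.1 CPM (14.5 to 17.7), with 5.64% of cells positive (1.09% thinned). Of those 78 cells 17.9% (10.2 to 28.3) had Cxcl5 and 46.2% Cxcl1, against 2.76% and 20.3% of the other ligament cells. Pulp was at 101 CPM (93.3 to 109), fibroblasts at 202 CPM (180 to 226) and marrow stromal cells at 540 CPM (457 to 635), where 21 of 27 cells had a UMI. Within P25 pulp, cluster 8 had 193 CPM and cluster 3 had 54.4 CPM. In fibroblasts 164 of 306 UMIs were in 1 cell, and 40.0% of the 25 Cxcl14-positive fibroblasts had Ccl11, against 60.4% of the others.

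**Figure D3:**
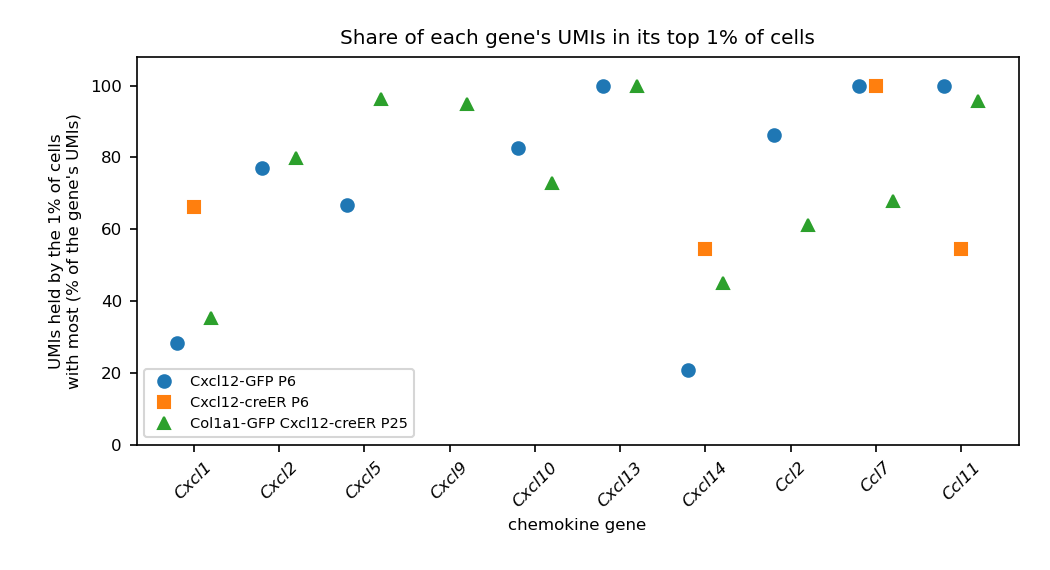
Share of each chemokine's UMIs that lies in the 1% of cells with most of it (71, 12 and 55 cells in the P6 GFP, P6 creER and P25 libraries), for members with 50 or more UMIs in that library. Cxcl1 and Cxcl14 are the most evenly spread in the GFP library, at 28.4% and 20.7%, and Cxcl5 at P25 is at 96.4%; where fewer cells have a gene than the 1% holds, the share is 100% by construction.

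Ccl2 and Ccl7, the monocyte attractants, were held mostly by macrophages at P25. Ccl2 stood at 2317 CPM (2271 to 2363) in macrophages, with 195 of 280 cells positive (69.6%, 48.6% thinned), and Ccl7 at 2505 CPM (2458 to 2554), with 166 positive (59.3%, 44.3% thinned). P25 odontoblasts had Ccl2 in 3.35% and Ccl7 in 6.15% of cells, and 0 after thinning for both. Of the Ccl2-positive macrophages 79.5% (73.1 to 84.9) had Ccl7, against 12.9% of the 85 without. Macrophage cluster 9 was higher than the smaller cluster 27 for both, at 2479 against 565 CPM for Ccl2 and 2672 against 709 CPM for Ccl7. Within macrophages 9.23% of Ccl2-positive and 8.24% of Ccl2-negative cells had Cxcl10.

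Outside macrophages the pair came apart. Marrow stromal cells had 402 CPM of Ccl2 (330 to 484) and 80.3 CPM of Ccl7 (50.3 to 122), fibroblasts 121 and 181 CPM, and cluster 5 had 114 and 22.9 CPM. The number of Ccl7 UMIs per Ccl2 UMI was 1.08 (1.05 to 1.11) in macrophages and 1.5 (1.24 to 1.82) in fibroblasts. It was 0.321 (0.270 to 0.381) in ligament cells, 0.200 (0.120 to 0.318) in marrow stromal cells and 0.140 (0.0536 to 0.310) in endothelial cells. The ligament value joins unlike clusters: cluster 13, with 105 of the 179 ligament Ccl7 UMIs, was at 1.64 (1.19 to 2.28), while cluster 1 was at 0.121 (0.0861 to 0.167). The intervals of marrow stromal and endothelial cells lie below those of macrophages and fibroblasts, and that of ligament cluster 13 overlaps the fibroblast interval. In fibroblasts the 8 cells with 10 or more Ccl7 UMIs held 79.3% of it, and their macrophage list summed to 35.9 against 22.4 CPM in cells without Ccl7. Ccl7 was found in 33.9% (22.3 to 47.0) of Cxcl1-positive fibroblasts and in 8.47% (2.81 to 18.7) of the others.

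**Figure D4:**
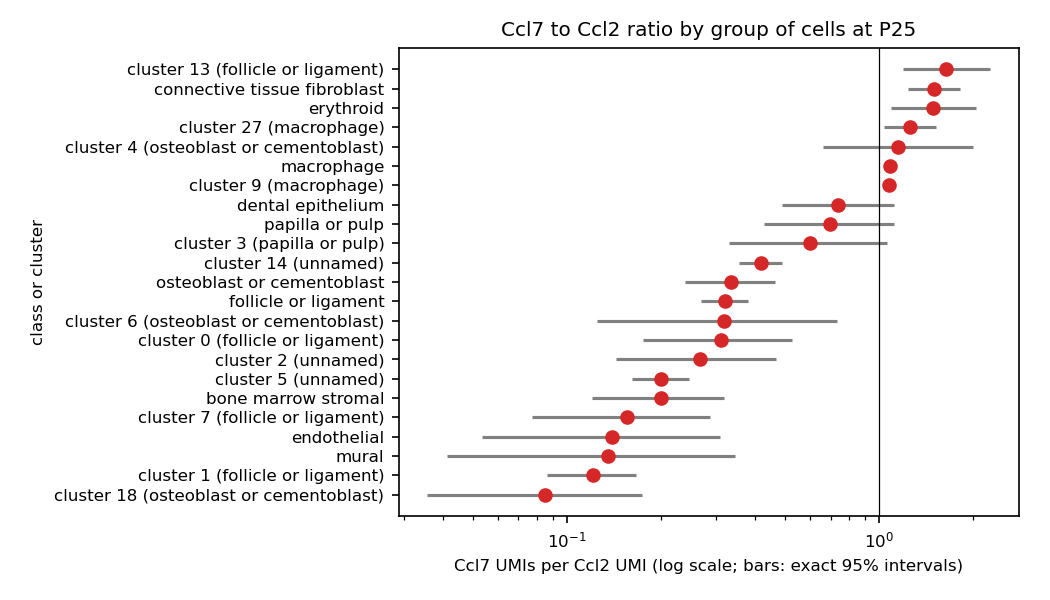
Ccl7 UMIs per Ccl2 UMI at P25 with 95% counting intervals, for classes and clusters with at least 20 Ccl2 UMIs and more than 3 Ccl7 UMIs. Macrophages sit at 1.08 and fibroblasts at 1.5, marrow stromal and endothelial cells sit at 0.200 and 0.140, and the ligament clusters spread from 0.121 to 1.64.

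In some classes the pair came with macrophage transcripts in the same cells. In P6 GFP pulp 2 of 2273 cells held 77.1% of the class's Ccl2 and 88.2% of its Ccl7, and their macrophage list summed to 11668 CPM against 18.9 CPM in pulp cells without Ccl2. In the P25 erythroid class 1 cell held 102 of 106 Ccl7 UMIs, with a macrophage list of 14727 against 132 CPM. The 15 ligament cells that held 64.5% of ligament Ccl2 had 43.1 CPM of that list against 18.2 CPM in those without, and the 4 fibroblasts that held 82.5% of fibroblast Ccl2 had no UMI of it. Among the named classes of the P6 GFP library, mural cells had the highest level of both. Ccl2 stood there at 318 CPM (272 to 368, 15 of 66 cells) and Ccl7 at 48.4 CPM from 3 cells. By UMIs, mural cells held 31.3% of the library's Ccl2 and 14.3% of its Ccl7, and papilla or pulp 20.9% and 63.0%. The 7 mural cells with 10 or more Ccl2 UMIs had a mural list of 8911 CPM against 3046 CPM in those without. In the creER library 121 of 134 Ccl7 UMIs lay in 4 fibroblasts of cluster 18, with no macrophage-list UMI and a median depth of 5638 UMIs against 1325 in the class's other cells.

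Ccl11, the eosinophil attractant, lay mostly in fibroblasts at P25 (93.9% of its UMIs), in mural cells in the GFP library (78.5%) and in unnamed cluster 17 in the creER library (74.0%). The best list of cluster 17 is also that of connective tissue fibroblasts, and the GFP library formed no class of that name. The names of these holders thus depend on the naming rules and on the classes that formed. At P25 it stood at 797 CPM (753 to 844) in connective tissue fibroblasts, with 68 of 121 cells positive (56.2%, 29.8% thinned), 13.8-fold (9.14 to 21.8) above mural cells at 57.9 CPM. Macrophages, high in the neighbouring Ccl2 and Ccl7, had a single Ccl11 UMI, or 0.239 CPM, and 0.357% of their cells had it (0 thinned), at a median depth of 13863 UMIs. The 31 fibroblasts with 10 or more UMIs held 89.3% of the class's Ccl11, and their connective tissue fibroblast list summed to 48937 against 36521 CPM in the 53 without. In the P6 GFP library Ccl11 was in mural cells at 111 CPM (85.3 to 143), with 12 of 66 cells positive (18.2%, 12.1% thinned) against 0.141% of Col9a1-high cells. In the creER library unnamed cluster 17 had it in 32 of 36 cells, at 869 CPM (658 to 1125) from 57 UMIs, and fibroblasts at 69.0 CPM (42.2 to 107).

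The 2 P6 libraries, which differ in reporter, gate and depth, could be compared in follicle or ligament cells (801 cells of cluster 1 in the GFP library against 125 cells of clusters 5, 7 and 20 in the creER library). The creER class mixes depths: the 48 cells of cluster 7 had a median of 20795.5 UMIs, clusters 5 and 20 had 1069 and 828. It also mixes kinds, since cluster 5 was named by the periodontal ligament list and the other clusters by the dental follicle list. Cluster 7 held 14 of the 15 creER Cxcl1 UMIs and all 8 of Cxcl5. Cxcl1 was 483 against 11.9 CPM, 40.5-fold higher in the GFP library (24.5 to 72.5). Cxcl5 was 14.5-fold higher (7.33 to 33.7), and Cxcl2, with no UMI in the creER cells, at least 15-fold higher against a floor of 3 counts. Cxcl14 was 4.60-fold higher (4.08 to 5.21), although cluster 20 of the creER class by itself was above the GFP class. All 4 members at 20 CPM were thus at least 2-fold higher, and none lower, against 9.71% and 16.3% of all 7154 genes at that level. In the same cells 13 of 18 immediate early and stress genes, which tissue handling also induces, were at least 2-fold higher, among them Fos at 5238 against 1199 CPM and Junb at 4073 against 742 CPM, and their part in the result was not tested. Of the NF-kB response list 2 of 8 genes were, Nfkbia and Nfkbiz. In the Col9a1-high mesenchyme the only member at 20 CPM was Cxcl1, at 44.0 against 1.90 CPM, the latter from 1 UMI (ratio 23.2, interval 4.14 to 916), beside 9.45% of genes at least 2-fold higher and 13.1% lower.

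Between the P25 library and the P6 GFP library, of the 6 members at 20 CPM in follicle or ligament cells on either side, 4 were at least 2-fold lower at P25, 0 higher and 2 within. The P6 class is cluster 1, named by the dental follicle list, and the P25 class is clusters 0, 1, 7 and 13, named by the periodontal ligament list, so stage and kind of cell cannot be told apart. P25 cluster 10, 250 cells with the follicle list highest, stayed unnamed since its leading genes include Ibsp and Dmp1, and had 1 Cxcl14 UMI. Cxcl14 was 16.1 against 1002 CPM, 62.4-fold lower (56.4 to 69.2). Cxcl2 was 7.40-fold lower (5.95 to 9.26), Cxcl1 5.23-fold lower (4.96 to 5.51) and Cxcl5 2.11-fold lower (1.91 to 2.32), against 20% of all genes at least 2-fold lower. Cxcl5 depends on the ligament cluster, since cluster 7 taken by itself was above the P6 level, at 240 CPM, and on naming, since with clusters named by their best list alone its log2 ratio was -0.72. Cxcl10 and Ccl2, both within 2-fold on the CPM + 1 scale, were higher by 2.01-fold (1.63 to 2.50) and 1.86-fold (1.49 to 2.34), Ccl7 was 3.30-fold higher (2.0 to 5.79) at levels under 20 CPM, and 10.8% of genes were at least 2-fold higher. Of the immediate early list 3 of 20 genes were higher and 5 lower, and the median of all genes was -0.39 on the log2 scale.

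In papilla or pulp 2 members reached 20 CPM in these libraries. Cxcl14 was 101 CPM at P25 and 91.2 CPM at P6, a ratio of 1.11 (1.01 to 1.22), and Cxcl1 was 30.1 and 35.8 CPM, a ratio of 0.840 (0.710 to 0.992). Neither of these 2 members passed a 2-fold difference, while 11.5% of genes were higher and 10.6% lower by that measure. Below 20 CPM Cxcl10 was 9.54 against 2.43 CPM. Other genes of pulp differed more: 13 of 20 immediate early genes were higher and 1 lower at P25 (median log2 ratio 1.28, against -0.16 for all genes), and 5 of 13 interferon and 3 of 7 NF-kB genes were higher; their part in the result was not tested. The Cxcl14 ratio thus differed between follicle or ligament cells and pulp of the same libraries, a difference that cannot be tested with 1 library each.

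Endothelial cells, 88 at P25 and 77 in the P6 GFP library, showed the interferon pair. Cxcl10 was 122 against 8.46 CPM, 14.4-fold higher at P25 (6.44 to 39.9), with 18 of 88 cells positive. Cxcl9, with 47 UMIs against 0, was at least 9.72-fold higher, and Ccl2, with 50 against 0, at least 10.3-fold higher, though 31 of its UMIs were in 1 cell, which had no macrophage-list UMI. Cxcl2 was 3.1-fold lower (1.91 to 5.14) and Cxcl1 was within 2-fold. Of the 5 members at 20 CPM, 3 were higher and 1 was lower, against 16.3% and 11.0% of genes. The interferon response list was higher with them: 21 of 23 genes passed 2-fold, with a median of 2.36 on the log2 scale, where that of all genes was -0.03. The Iigp1 level, for example, was 517 against 56.4 CPM, Bst2 1095 against 276 CPM and Isg15 354 against 111 CPM. The immediate early list had 2 of 20 genes higher and 5 lower.

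**Figure D5:**
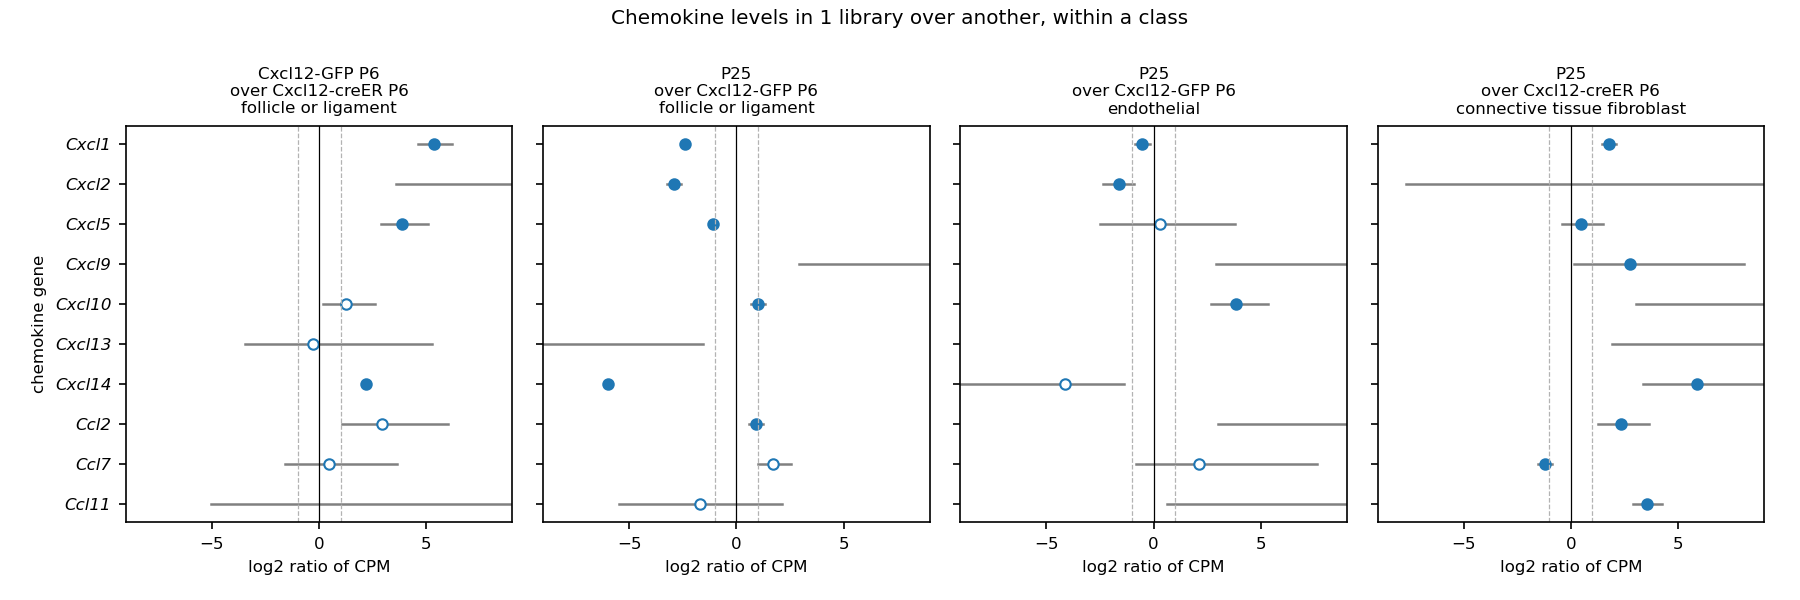
CPM ratios of the members on a log2 axis with 95% counting intervals, for follicle or ligament cells (P6 GFP over P6 creER, and P25 over P6 GFP), endothelial cells (P25 over P6 GFP) and connective tissue fibroblasts (P25 over P6 creER). Filled points reach 20 CPM on the higher side, dashed lines mark 2-fold, and a member with no UMI on a side has an interval open at that end and no point; Cxcl14 lies farthest below the lines in P25 over P6 GFP follicle or ligament cells.

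The P25 and creER libraries share 5 barcodes and differ in median depth, 14771 against 1469 UMIs, so their ratios rest on few P6 UMIs. In connective tissue fibroblasts (121 against 74 cells) Cxcl1 was 3.41-fold higher at P25 (2.70 to 4.36) and Ccl11 11.6-fold higher (7.45 to 19.0). Ccl2 was 4.99-fold higher (2.37 to 12.6), from 7 UMIs in the creER fibroblasts, while the unnamed creER cluster 17 held another 9. Cxcl10 and Cxcl13, with no UMI at P6, were at least 10.2-fold and 4.84-fold higher. Cxcl14 was 202 against 3.45 CPM, the latter from 1 UMI (ratio 58.4, interval 10.4 to 2315), and Cxcl5 was 57.3 against 41.4 CPM, a ratio of 1.38 (0.753 to 2.78). The Cxcl14, Ccl11 and Ccl2 ratios depend on whether creER cluster 17 is counted in. Its best list is that of connective tissue fibroblasts, but it stayed unnamed for its leading genes. With clusters named by their best list alone, which adds the 36 cells of cluster 17, the log2 ratio of Cxcl14 fell to 0.64, within 2-fold. That of Ccl11 fell from 3.51 to 1.87. Members at least 2-fold lower went from 1 to 0, with Ccl7 at -0.91. Ccl7 was 2.30-fold lower (1.85 to 2.86), from the 4 P6 cells named above. Of 9 members at 20 CPM, 7 were higher and 1 lower, against 12.2% and 11.1% of genes. All 20 immediate early genes were at least 2-fold higher, with Fos at 5361 against 1018 CPM, as were 7 of 11 interferon and 5 of 14 NF-kB genes; their part in the result was not tested.

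In dental epithelium Cxcl5, with 3331 UMIs at P25 and 0 in 130 P6 creER cells, was at least 546-fold higher, and Cxcl1 at least 64.8-fold higher. All 4 members at 20 CPM were higher there, but so were 54.7% of all genes, with 7.96% lower. The classes differ in kind, with Ppbp at 615 UMIs against 0. Of the P6 cells 88 were cluster 1, named by the ameloblast list and led by Enam and Amelx. The other 42 were cluster 14, named by the epithelium list. All P25 cells were cluster 17, named by the epithelium list and led by the keratin genes Krt14, Krt5 and Krt17. In follicle or ligament cells Cxcl14 was 13.6-fold lower at P25 than in the creER library (11.6 to 15.9), while Cxcl1 was 7.75-fold higher (4.69 to 13.9) and Cxcl5 6.89-fold higher (3.49 to 16.0). There 4 of 5 members at 20 CPM were higher and 1 lower, against 6.99% and 17.2% of genes. The creER class mixes the depths and kinds of cluster given above. Of the immediate early list 14 of 20 were higher there and 0 lower, and their part in the result was not tested. Set beside the GFP library, the P25 ligament level of Cxcl1 thus lay between both P6 values, at 92.4 CPM with 483 and 11.9 CPM on either side, whereas Cxcl14 was below both. In osteoblasts or cementoblasts Ccl2 and Ccl7 were 6.22-fold and 7.55-fold lower at P25, against 20.9% of genes lower and 6.78% higher, but the P6 values of 59.4 and 24.2 CPM came from 1 cell each. Without the cell with most UMIs on each side the direction turned, to 2.24 for Ccl2 and 1.96 for Ccl7 on the log2 scale, P25 over P6. In Schwann cells Cxcl1 was 190 CPM at P25 and 0 at P6, at least 23.0-fold higher, and Cxcl14 was 86.6 and 88.2 CPM (ratio 0.982, 0.590 to 1.64); 2 of 3 members were higher and none lower, against 17.1% and 15.3% of genes. In the same cells 17 of 20 immediate early genes (median log2 ratio 2.42) and 9 of 10 interferon genes were higher and 0 lower, and their part in the result was not tested.

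The receptors of these ligands were in few classes of the P25 library. Cxcr2, the receptor of Cxcl1, Cxcl2 and Cxcl5, was 193 CPM (168 to 222) in neutrophils and 1.15 CPM in the next class. Ccr2, the receptor of Ccl2 and Ccl7, was 157 CPM (145 to 169) in macrophages, the class with the highest levels of both ligands, and Ccr3, the receptor of Ccl11, was 168 CPM there. Ackr1, a scavenger of inflammatory chemokines, was highest in endothelial cells at 86.6 CPM. Of chemokines outside the 10, Ccl8 was 1141 CPM in macrophages and 113 CPM in fibroblasts, the same order as Ccl7, and Ccl12 was 802 CPM in macrophages.

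The genes with the cluster pattern most like each member were listed by Pearson r of log levels over the 29 P25 clusters, which come from the same library and so share its depth and free RNA. For Cxcl1 they were Fst (0.84), Ephx1 and Il6 (0.82). For Cxcl10 they were Ifi47 (0.81), Irgm1 (0.80) and Il6 (0.79), and for Cxcl9 Ebf3 (0.90), Hrct1 and Fmo2. Ccl2 and Ccl7 had the same first gene, Fam26f, at 0.88 for each, and Ccl11 had Vtn (0.92), Clec3b and Hmcn2. Cxcl2 had Tm6sf1 (0.87), Csf3r and Nlrp3, and Cxcl5 had Aldh3a1 (0.76), Vnn1 and Ppl. Cxcl14 had Gpm6b (0.82), Chrdl1 and Cobl, and Cxcl13 had Ccl8 (0.83), Slco2b1 and Angptl7. Spearman rho was near r for some of these genes, such as Fst (0.84), and far lower for others. It was 0.47, 0.48 and 0.26 for Vtn, Clec3b and Hmcn2, 0.32 for Nlrp3, 0.38 for Vnn1 and 0.40 for Ccl8. Among the members themselves, the pairs with the highest r at P25 were Ccl2 with Ccl7 (0.88) and Cxcl9 with Cxcl10 (0.77), both neighbours on their chromosome. Other neighbours had low r there: Cxcl1 with Cxcl2 -0.009, Cxcl2 with Cxcl5 -0.10, and Ccl11 with Ccl2 and Ccl7 0.18 each. Cxcl1 with Cxcl5 was at 0.47, and members of separate runs reached more, with Cxcl1 and Cxcl9 at 0.71. In the 17 clusters of the P6 GFP library the neighbours Cxcl1 and Cxcl2 led, at 0.79. At P25 Cxcl2 lay mostly in macrophages and Cxcl1 mostly outside them.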

How the data were processed

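Per the labels' protocols, cells sorted by fluorescence were loaded on the 10x Chromium 3′ v3 platform. The values are the UMI counts of each gene and barcode as deposited; the submitters' processing notes name Cell Ranger, Seurat and mm10, and the file headers give Cell Ranger 6.0.0 for the creER and 3.1.0 for the P25 library. A barcode needed 500 genes, with mitochondrial UMIs up to 15%, and predicted doublets (0.8% per 1000 cells; 452, 10 and 256 cells) were removed. Each library was clustered on its own (2000 variable genes without the members, 30 components, 15 neighbours, Leiden resolution 1.0; leidenalg 0.10.2, scikit-learn 1.9.0, numpy 2.4.6). Clusters were named from marker lists when at least 3 markers were 1.5-fold over the other cells and detected in 10% of cells, with limits set after the clusters were seen; other clusters stayed unnamed, so differences between classes rest on these rebuilt names. Counts were summed by class over the genes shared by all libraries. Intervals are exact (Poisson for levels, conditional binomial for ratios, Clopper-Pearson for shares; scipy 1.17.1). A member was called higher or lower past 2-fold on CPM + 1, in classes of 50 or more cells on both sides, and folds in the text are plain CPM ratios; a side at 0 was set to 3 counts for a lower bound. The interval code was tested on simulated data. All 10 members are named in every class, and beside them the list genes with the highest CPM and the 3 genes closest by Pearson r over clusters. The members and lists were chosen with earlier results of these data known. Gene positions are from GENCODE vM21, and promoters from RefSeq.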

Additional observations from a re-analysis of the deposited data

Results flagged for a closer look

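The ratio of P25 to P6 creER took opposite directions between cell classes for 2 members, and these differences were not tested, since each group has 1 library. For Cxcl14 the log2 ratio was 5.51 in connective tissue fibroblasts and 1.96 in dental epithelium, both higher at P25, and -3.68 in follicle or ligament cells. The fibroblast value rests on 1 UMI at P6 and on leaving creER cluster 17 unnamed: with clusters named by their best list alone it was 0.64, within 2-fold. The epithelium classes differ in kind, as given above. For Ccl2 the log2 ratio was 2.27 in fibroblasts, 3.71 in epithelium and 3.19 in follicle or ligament cells, and -2.52 in osteoblasts or cementoblasts, where 1 creER cell held all 27 P6 UMIs. The fibroblast value rests on 7 P6 UMIs and leaves out the 9 of creER cluster 17.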

How the results depend on the processing

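The alternatives were at least 1000 genes or at most 10% mitochondrial UMIs per cell, no doublet removal, Leiden resolutions 0.5 and 2.0, naming by the best list alone, the mean of each cell's CPM, leaving out the cell with most UMIs of the gene, a 4-fold limit, counting only members at 20 CPM, thinning to 500 UMIs and requiring 2 UMIs. Of the log2 ratios 347 stayed within their interval, another 112 moved and 8 reversed. Of the levels and shares 114 were counted as the same and 61 as moved, so many of the levels given above also depend on these settings. Taking each cluster by itself was chosen after seeing the data; it reversed Cxcl14 in GFP over creER follicle cells (cluster 20, -1.28) and Cxcl5 in P25 over GFP ligament cells (cluster 7, 1.37). In P25 over creER osteoblasts, Ccl2 and Ccl7 reversed to 3.99 and 2.01 without doublet removal, 1.32 and 1.38 by the mean of cell CPM and 2.24 and 1.96 without the top cell, whose construction shows that 1 cell set the main value.

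Counts are of all 10 members past 2-fold, also those below 20 CPM. No share over all genes was taken under that rule, and members below 20 CPM can pass it on few UMIs, so these counts describe only how calls move. In GFP over creER Col9a1-high cells 5 were higher, and 1 past 4-fold or at 20 CPM. Of these, Cxcl2, Cxcl5 and Ccl2 had 0 creER UMIs, and their ratio intervals start at 0.291, 0.176 and 0.184. That of Cxcl14 starts at 0.931, so all but Cxcl1 have intervals that reach below 1. In P25 over GFP ligament cells 2 were higher, 1 with 1000 genes, without doublet removal or past 4-fold, 4 by the mean of cell CPM and 0 at 20 CPM. In pulp 2 were higher, 4 with 1000 genes, 10% mitochondrial UMIs or resolution 0.5, 5 at resolution 2.0, 1 without the top cell and 0 past 4-fold or at 20 CPM; 0 were lower, and 1 at resolution 0.5 or by the best list. In endothelial cells 5 were higher, 3 at 20 CPM, and 2 lower, 1 past 4-fold or at 20 CPM. In P25 over creER fibroblasts 1 was lower (Ccl7), and 0 with 10% mitochondrial UMIs, by the best list, by the mean of cell CPM or past 4-fold. In osteoblasts 1 was higher, 6 without doublet removal, 4 by the best list or without the top cell, 5 by the mean of cell CPM and 0 at 20 CPM; 3 were lower, 1 without doublet removal or by the best list and 0 by the mean of cell CPM or without the top cell. In P25 over creER follicle cells and epithelium 7 were higher, 4 at 20 CPM, and in Schwann cells 6, 3 past 4-fold or without the top cell and 2 at 20 CPM. The cause of the other changes was not tested. The remaining 153 counts stayed within 1.5 times.

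No paired analysis was possible because each group has 1 library. With at least 1000 genes a cell, the creER library kept enough cells only of osteoblasts and Schwann cells among the classes compared. Some classes had too few under other settings, which gave no value. Follicle or ligament cells of the creER library could be compared with neither the GFP nor the P25 library under 4 settings. These were at least 1000 genes, at most 10% mitochondrial UMIs, no doublet removal and resolution 0.5, so these ratios were not checked there. At resolution 0.5 the mural levels of the GFP library and the GFP over creER ratios of Col9a1-high cells were also missing. The creER library has a median of 1469 UMIs a cell, and counts of 0 there are given as bounds.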
